A study of Mus musculus with 32 samples.

Results

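Excision repair of cisplatin damage in mouse liver was compared, gene by gene, with excision repair in kidney, lung and spleen. The measurement was XR-seq, which sequences the short oligomers that excision repair cuts out of damaged DNA, and the liver supplied 2 of its 8 libraries, with 2 each from kidney, lung and spleen, among 32 libraries of all assays in the series. All mice were C57BL/6J wild-type females of 6 to 7 months. They received cisplatin once, at 10 mg per kg by intraperitoneal injection at zeitgeber time ZT1, and were killed at ZT5, which is 4 h later by the protocol, whereas the sample labels give 2 h. Damage-seq, which maps the adducts still in the DNA, has the same 8 groups of organ and replicate. RNA-seq has 2 cisplatin-treated and 2 saline-injected control libraries per organ. No untreated XR-seq or Damage-seq library was analysed here. Whole organs were used. By the methods, DNA for Damage-seq came from the chromatin pellet left by the XR-seq preparation, and whether RNA-seq used the same animals was not given in the sources used here.

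Cisplatin links neighbouring guanines of a DNA strand, and nucleotide excision repair removes such adducts by cutting the strand on either side and releasing an oligomer of roughly constant length. Damage on the transcribed strand (TS) of an active gene stalls RNA polymerase II and recruits the repair factors through transcription-coupled repair, whereas the non-transcribed strand (NTS) and silent DNA depend on the slower global repair. The TS signal of a gene therefore follows its transcription in general. The liver is made up largely of hepatocytes, which secrete plasma proteins and carry out drug, bile acid, amino acid and lipid metabolism.

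Levels are given in CPM, the TS reads of a gene scaled to the TS and NTS total of its library. The XR-seq libraries held between 10658675 and 59779770 reads on genes, of which 52731222 and 42091359 were in liver. The 7 hepatocyte markers, Alb among them, summed to 213 and 229 CPM in liver and to between 3.06 and 73.5 CPM in the other 6 libraries, the highest values being those of kidney. Replicate 1 of kidney, lung and spleen stood apart in their low counts. Their most frequent count between 2 and 100 was 32, 14 and 7, against 2 or 3 in the other 5 libraries, and 35.9%, 24.9% and 31.3% of their values were 0, against 13.9% to 17.7%. A zero in these 3 libraries thus says less than a zero elsewhere, and counts without them are given where they differ. The share of reads on the TS was 84.6% ± 1.07 (SD, n = 2) in liver and 87.8% ± 2.19 (SD, n = 6) elsewhere, a difference of −3.25 points that did not pass a two-sided exact permutation test (p = 0.143, where the 28 choices of 2 libraries allow no p below 0.0357).

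Of 19736 genes tested on the TS, 2935 (14.9%) were higher and 4823 (24.4%) were lower in liver than the mean of the other organs, and 11978 did not pass the test. The test asked for a log2 difference beyond 0.4 with edgeR's quasi-likelihood method at a Benjamini-Hochberg adjusted p under 0.05, and the mean of the other organs is a mean of log levels. The median gene lay at −0.22 on the log2 scale. With TMM factors, which centre the bulk of the genes, the median moved to 0.08 and the split turned to 4183 higher and 2901 lower, so that which direction holds more genes rests on the scaling. A stricter rule, that liver differed from each of the 3 organs in the same direction, was met by 1010 genes that were higher (5.12%) and 2448 that were lower (12.4%). With TMM factors these were 1608 and 1086. Leaving out the 3 libraries with sparse low counts gave 3588 higher and 5989 lower genes. In whole organs, fewer cells of a type and less repair per cell cannot be told apart.

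The genes with the largest excess of repair in liver were chosen by size. Eligible genes had at least 10 CPM in liver, passed against each organ and had both liver libraries above all others. The 10 largest were Sult2a3, Cyp7a1, Ces2a, Apoa5, Akr1c6, Mug2, Cyp1a2, Cyp3a25, Tat and the pseudogene Adh6-ps1. Sult2a3, a sulfotransferase gene on chr7:14067446-14123044 (minus strand), had 20.9 and 14.9 CPM in the liver libraries, 0.0469 CPM in lung replicate 2 and 0 in the other 5. Cyp7a1, the rate-limiting enzyme of bile acid synthesis (chr4:6265612-6275633, minus strand), had 15.4 and 8.32 CPM in liver, 0.0167 CPM in lung replicate 1 and 0 in the other 5. These levels rest on 1732 liver reads against 2 reads elsewhere for Sult2a3, a ratio of CPM of 1772 with a 95% counting interval of 490 to 14644, and on 1161 against 1 for Cyp7a1, a ratio of 2376 with an interval of 426 to 93916. The interval covers counting error only.

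Ces2a, a carboxylesterase (chr8:104734003-104741634), had 11.9 and 12.3 CPM in liver and 0.0358 CPM in kidney replicate 2, which was its only read outside the liver. Apoa5, an apolipoprotein that governs plasma triglycerides (chr9:46268633-46271919), had 18.6 and 17.6 CPM in liver, 0.251 CPM in kidney replicate 2 and 0 in the other 5 libraries. Cyp1a2, a drug-metabolising cytochrome P450 (chr9:57676937-57683703, minus strand), had 31 and 19.2 CPM in liver and at most 0.318 CPM elsewhere, a log2 difference of 9.28 ± 0.60 (SE; adjusted p = 3.49e-07). That the liver libraries lay above every other library was a condition of the choice, which 15.8% of all genes tested met. The RNA of all 10 was higher in liver as well, and Akr1c6 and Cyp3a25 were the 2 whose Damage-seq TS level passed as lower in liver, with log2 differences of −1.34 and −1.30.

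Members that move together in liver raise the question of shared letters at their starts, and 4 of these promoters are shown to make the compared windows visible. Each is the 250 bases before the RefSeq transcript start (GRCm38.p6), with matches to the motifs below in capitals. Those of Sult2a3 (chr7:14123049-14123298, minus strand) and Ces2a (chr8:104733753-104734002, plus strand) each held 2 matches of the C/EBP form, and those of Apoa5 (chr9:46268358-46268607, plus strand) and Cyp1a2 (chr9:57683656-57683905, minus strand) held a TATA box. Of the windows not shown, those of Mug2 and Tat held no match, that of Akr1c6 held TATAAA and that of Cyp3a25 the C/EBP form. Cyp7a1 and Adh6-ps1 had no RefSeq window.
Sult2a3: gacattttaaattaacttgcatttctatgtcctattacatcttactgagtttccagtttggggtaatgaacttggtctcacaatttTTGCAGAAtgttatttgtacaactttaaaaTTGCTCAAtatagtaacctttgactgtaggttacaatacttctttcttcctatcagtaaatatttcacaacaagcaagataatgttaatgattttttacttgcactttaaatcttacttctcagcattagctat
Ces2a: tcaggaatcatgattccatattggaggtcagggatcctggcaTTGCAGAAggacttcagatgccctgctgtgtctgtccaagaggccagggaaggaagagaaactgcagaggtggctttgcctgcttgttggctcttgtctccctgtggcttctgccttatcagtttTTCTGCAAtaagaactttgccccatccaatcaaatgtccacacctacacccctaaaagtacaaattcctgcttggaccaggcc
Apoa5: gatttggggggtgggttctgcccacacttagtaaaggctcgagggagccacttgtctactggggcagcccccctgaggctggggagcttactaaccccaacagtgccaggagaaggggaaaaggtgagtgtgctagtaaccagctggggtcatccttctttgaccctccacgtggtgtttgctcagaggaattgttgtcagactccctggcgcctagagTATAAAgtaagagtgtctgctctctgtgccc
Cyp1a2: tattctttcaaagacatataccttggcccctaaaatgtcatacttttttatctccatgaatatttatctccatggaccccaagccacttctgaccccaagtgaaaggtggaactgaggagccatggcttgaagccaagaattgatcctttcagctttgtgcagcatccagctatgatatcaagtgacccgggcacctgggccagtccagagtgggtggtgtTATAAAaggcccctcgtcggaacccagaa

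The motifs were searched on both strands, and none of the 5 contains another. The C/EBP form TTNNGCAA was in 14.7% of 1001 windows of the 728 genes higher in liver than in each organ that have a RefSeq window, in 9.56% of all 32851 windows and in 5.85% of the 2514 windows of genes lower in liver. The HNF4 form CAAAGTCCA was in 1.6%, 0.384% and 0.199% of these windows, and the FOXA form TGTTTAC in 4.80%, 3.17% and 1.87%. TATAAA was in 12.6% of the windows of the higher genes and 12.4% of all windows, and in 5.81% of those of the lower genes. The HNF1 motif was in 0.200%, 0.134% and 0.119%. These shares describe letters in the windows and say nothing of binding.

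**Figure D1:**
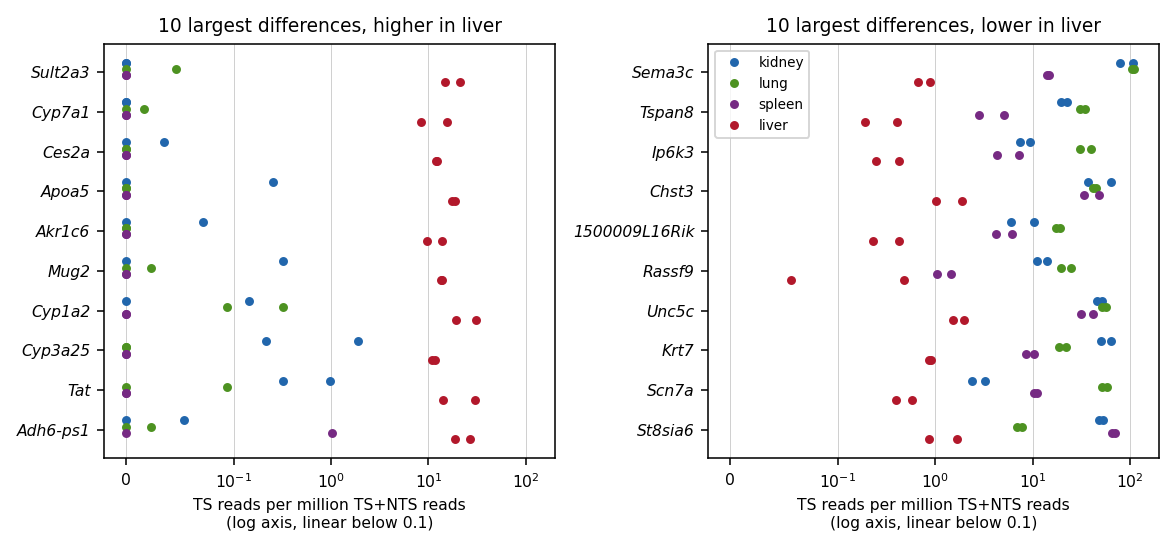
TS level in CPM (log axis, linear below 0.1) of the 10 genes with the largest differences in each direction, 1 point per library, coloured by organ. By the choice of genes, the 2 liver points lie to the right of all 6 others in the left panel and to the left of them in the right panel.

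Genes of hepatocyte function were mostly higher in liver. Over 12 lists of liver functions, 342 genes were tested, of which 254 (74.3%) were higher, 28 were lower and 60 did not pass, with a median log2 difference of 3.5 against −0.22 for all genes. The stricter rule against each organ was met by 153 that were higher and 20 that were lower. With TMM factors, 264 of the 340 members also tested in RNA-seq were higher and 17 lower.

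The secreted proteins were the most uniform. All 34 tested plasma carrier and acute-phase proteins were higher (median log2 difference 5.44), among them the protease inhibitor component Itih4 with 40.9 and 52.2 CPM in liver against 3.94 to 10.0 CPM elsewhere. Of the 23 coagulation factors and inhibitors 22 were higher and none was lower. F5, coagulation factor V (chr1:164151838-164220277), had 69.8 and 68.1 CPM in liver, 6.47 and 7.70 CPM in kidney, 0.769 and 0.657 CPM in lung and 0.751 and 3.69 CPM in spleen, and was 29.3 times as high by the fit (log2 4.87 ± 0.29, adjusted p = 8.21e-08). The exception was Serpinc1, antithrombin, with 32.5 and 33.0 CPM in liver and 21 to 29.8 CPM elsewhere (log2 0.44 ± 0.14, adjusted p = 0.315). Its liver libraries were still above all others, it passed with TMM factors (log2 0.75, adjusted p = 0.014), and it overlaps a gene on the opposite strand, so part of its TS reads may be NTS reads of that gene.

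All 19 complement components were higher. C8b, a chain of the membrane attack complex (chr4:104766317-104804548), had 103 and 116 CPM in liver and at most 0.375 CPM elsewhere, a fitted fold of 392 (log2 8.61 ± 0.25, adjusted p = 4.68e-10). Masp1, a protease that starts the lectin pathway, had 143 and 138 CPM in liver and between 1.5 and 10.8 CPM elsewhere (log2 4.79 ± 0.18, adjusted p = 2.83e-09). Of 20 apolipoproteins and lipoprotein genes 16 were higher and none was lower. Lipc, hepatic lipase, had the levels 209 and 286 CPM in liver and 7.49 to 21.5 CPM elsewhere, 18.4 times as high by the fit. Scarb1, a receptor for high density lipoprotein, had a difference of 0.26 and did not pass, but passed with TMM factors (log2 0.57, adjusted p = 0.029). The major urinary proteins, a family of near-identical genes whose reads cannot be assigned with certainty, had 3 members tested of 21, of which 2 were higher. Mup3 had 1.35 and 1.38 CPM in liver, and Mup21 had 55 reads in liver and none elsewhere, at least 37.5 times as high when 3 reads over the other libraries are taken as the limit of detection. Mup21 did not pass without liver replicate 1 (adjusted p = 0.11) or replicate 2 (adjusted p = 0.12).

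Enzymes of drug metabolism followed. Of 48 cytochrome P450 genes 40 were higher and 1 was lower, and of 38 conjugation enzymes 26 were higher and 1 was lower. Ugt1a6a, a glucuronosyltransferase, had 81.3 and 76.2 CPM in liver, 45.4 and 49.1 CPM in kidney and 13 to 19.2 CPM in lung and spleen (log2 1.81 ± 0.12, adjusted p = 5.81e-07). The lower P450 gene was Cyp4b1, with 3.51 and 2.87 CPM in liver, 36.6 and 36.7 CPM in lung, 10.3 and 19.0 CPM in kidney and 6.00 and 4.47 CPM in spleen (log2 −2.14 ± 0.29, adjusted p = 0.000149), and its RNA was lower in liver too (log2 −1.61, adjusted p = 0.00381). Por, the reductase that supplies P450 enzymes with electrons, had 156 and 157 CPM in liver and 193 to 245 CPM elsewhere and did not pass (log2 −0.46, adjusted p = 0.217).

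The metabolic lists held genes of both directions. Of 45 genes of the urea cycle and amino acid breakdown 31 were higher and 4 lower, of 22 genes of gluconeogenesis and glycogen 15 and 2, of 30 genes of bile acid and cholesterol metabolism 17 and 5, and of 26 hepatocyte transcription factors 18 and 1. Bckdhb, a subunit of the branched-chain ketoacid dehydrogenase, had 270 and 264 CPM in liver and 51.0 to 146 CPM elsewhere (log2 1.70 ± 0.09). Its partner subunit Bckdha had 56.7 and 52.0 CPM in liver and 107 to 153 CPM elsewhere (log2 −1.24 ± 0.10, adjusted p = 4.88e-06), so that within 1 enzyme complex the 2 genes lay in opposite directions, while the RNA of both was higher in liver (log2 3.62 and 2.44).

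Pcx, pyruvate carboxylase of gluconeogenesis, had 251 and 309 CPM in liver, 159 and 114 CPM in kidney and 57.4 to 72.4 CPM in lung and spleen (log2 1.77 ± 0.12). Srebf1, a regulator of lipid synthesis, had 94.6 and 88.4 CPM in liver and 155 to 172 CPM elsewhere (log2 −0.82 ± 0.09, adjusted p = 0.000218), but did not pass with TMM factors (log2 −0.51, adjusted p = 0.092). Among the transcription factors, Esr1, the estrogen receptor, had 354 and 182 CPM in liver, 138 and 114 CPM in spleen and 10.4 to 22.1 CPM in kidney and lung (log2 3.12 ± 0.19). The only factor called lower, Rxra, did not pass with TMM factors (log2 −0.26, adjusted p = 0.9).

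Fatty acid oxidation departed from the other liver lists. Of its 34 genes 14 were higher, 14 were lower and 6 did not pass, with a median of −0.39, although the RNA of 33 was higher in liver. The higher genes included the thioesterase Acot12, the fatty acid carrier Fabp1 and the acyl-CoA synthetase Acsm3. The lower ones held most of the enzymes of mitochondrial beta-oxidation on the list, and all 14 had higher RNA in liver. Cpt1a, which admits fatty acids to mitochondria (chr19:3322334-3385733), had 103 and 131 CPM in liver and 208 to 247 CPM elsewhere (log2 −0.97 ± 0.10, adjusted p = 8.54e-05), with RNA at 53.2 and 25.0 RPKM in liver and 16 to 37.8 RPKM elsewhere. Hadha, a subunit of the mitochondrial trifunctional protein, had 51.2 and 45.0 CPM in liver and 96.6 to 122 CPM elsewhere (log2 −1.16, adjusted p = 2.67e-05), with higher RNA in liver (log2 2.20). Acadvl and Acsl1 had log2 differences of −1.47 and −0.89 with the liver libraries below all others. With TMM factors 14 genes of the list were higher and 12 lower. The count of genes lower in XR-seq and higher in RNA-seq was 14 as scaled here, 12 with TMM factors for XR-seq, 10 with library totals for RNA-seq and 8 with both. Acot12, Fabp1 and Acsm3 were picked after their values had been seen.

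The cytosolic ribosomal protein genes, which every cell transcribes, had 23 of 49 members lower and none higher on the TS (median log2 −1.08), where 24.4% of all genes were lower. Rps19 had 10.8 and 15.1 CPM in liver and 24.3 to 43.1 CPM elsewhere (log2 −1.29 ± 0.20, adjusted p = 0.000694), and Rpl22 had 11.2 and 10.3 CPM against 20.9 to 30.8 CPM (log2 −1.17 ± 0.20, adjusted p = 0.00177). With TMM factors 12 members were lower, and without the 3 libraries with sparse low counts 40 were. The RNA of 48 of the 49 was not called in either direction as scaled here (median 0.26), whereas with library totals 20 were lower in liver, Rps19 (log2 −1.04) and Rpl22 (log2 −0.94) among them. In Damage-seq 7 of them were tested on the TS and none was called.

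**Figure D2:**
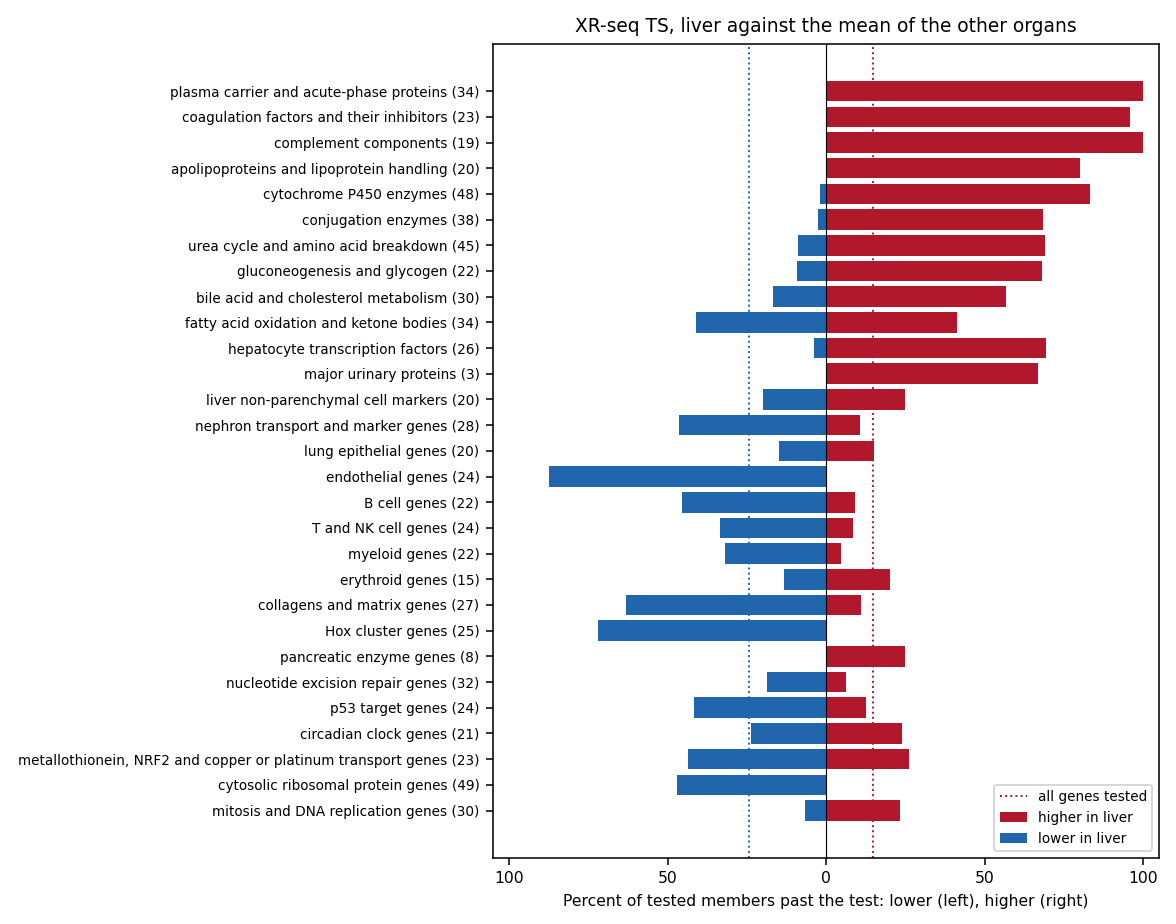
Percent of the tested members of each list (number tested in brackets) that were higher in liver on the TS (right of 0) or lower (left of 0), with dotted lines at the 14.9% and 24.4% of all genes tested. The secreted protein lists reach 100% or close to it on the right, and the fatty acid oxidation list extends equally to both sides. The endothelial, Hox and cytosolic ribosomal protein lists extend to the left only.

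On the other side, the 10 genes with the largest deficit in liver were Sema3c, Tspan8, Ip6k3, Chst3, 1500009L16Rik, Rassf9, Unc5c, Krt7, Scn7a and St8sia6. Sema3c, a secreted guidance protein (chr5:17574281-17730268), had 0.664 and 0.879 CPM in liver, 107 and 78.3 CPM in kidney, 106 and 111 CPM in lung and 14.9 and 14.0 CPM in spleen, a fitted fold of 68.5 (log2 −6.10 ± 0.22, adjusted p = 2.2e-09). Chst3, a chondroitin sulfotransferase, had 1.02 and 1.88 CPM in liver and 34.0 to 64.3 CPM in the other 6 libraries. Krt7, a keratin of bile ducts and other simple epithelia, had 0.872 and 0.903 CPM in liver and 8.66 to 63.8 CPM elsewhere. The other 7 had log2 differences between −5.59 and −4.56. That the liver libraries lay below every other library was again a condition of the choice, which 28.3% of all genes met. The RNA of all 10 was lower, and Damage-seq on the TS did not pass for any of them.

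Vessel, matrix and positional genes were the lists with the largest shares of lower members. Of 24 endothelial genes 21 were lower and none was higher (median −1.84), and of 27 collagens and matrix genes 17 were lower and 3 higher. Fli1, an endothelial and blood cell transcription factor, had 36.2 and 31.6 CPM in liver, 51.9 and 64.8 CPM in kidney and 277 to 311 CPM in lung and spleen (log2 −2.35 ± 0.11, adjusted p = 1.9e-08). Flt1, a receptor for vascular growth factor, had 36.6 and 27.0 CPM in liver and 54.0 to 329 CPM elsewhere. Col4a2, of basement membranes, had 86.2 and 64.5 CPM in liver and 130 to 508 CPM elsewhere (log2 −1.94 ± 0.13). Col15a1 went against its list, with 178 and 184 CPM in liver and 21.2 to 34.7 CPM elsewhere (log2 2.80 ± 0.10, adjusted p = 2.36e-09), while its RNA did not pass (log2 0.81, adjusted p = 0.138).

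Of 25 Hox genes tested 18 were lower and none was higher (median −2.28). Hoxa3 (chr6:52169062-52213336, minus strand) had 12.3 and 14.1 CPM in liver, 175 and 182 CPM in kidney, 134 and 128 CPM in lung and 36.7 and 30.5 CPM in spleen (log2 −2.80 ± 0.13, adjusted p = 1.1e-08). Hoxb3 had 14.1 and 12.7 CPM in liver and 67.5 to 139 CPM elsewhere. Both overlap genes on the opposite strand, and in these genes the strands of the pair cannot be told apart. The Hox list had 12 members lower on the NTS as well, where 3.07% of all genes were.

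The lists of the other organs' own cells were lower in part. Of 28 nephron genes 13 were lower and 3 higher, of 22 B cell genes 10 and 2, of 24 T and NK cell genes 8 and 2, and of 22 myeloid genes 7 and 1. Ebf1, a B cell factor, had 6.41 and 11.9 CPM in liver, 260 and 266 CPM in spleen and 89.4 to 113 CPM in kidney and lung. Lef1, a T cell factor, had 2.41 and 4.30 CPM in liver, 87.3 and 89.6 CPM in spleen, 54.4 and 46.3 CPM in lung and 6.52 and 7.52 CPM in kidney. The lung epithelial list had 3 of 20 lower and 3 higher and the erythroid list 2 of 15 lower and 3 higher, close to the background in both directions. Of 8 pancreatic enzyme genes 2 were higher. One member that was higher in repair while its RNA was not called was Slc34a2, a phosphate transporter of lung epithelium, with 18.3 and 36.2 CPM in liver and at most 5.98 CPM elsewhere (log2 4.18 ± 0.37, adjusted p = 2.78e-06), against 0.585 and 0.965 RPKM of RNA in liver and a mean of 78.9 RPKM in the other organs.

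The contrast with a mean of organs also called a gene whose level was higher in kidney than in liver. Umod, uromodulin of the kidney tubule, had 1.02 and 0.689 CPM in liver and 4.84 and 3.51 CPM in kidney, with at most 0.0577 CPM in lung and spleen, and its difference of 3.33 (adjusted p = 0.0142) turned to −0.70 when the 6 libraries were taken as 1 group. Without liver replicate 1 it did not pass (adjusted p = 0.091).

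Of 20 markers of liver cells other than hepatocytes 5 were higher and 4 lower (6 and 2 with TMM factors), where 14.9% and 24.4% of all genes were, and the RNA of 16 was higher. Stab2, a scavenger receptor of liver sinusoids, had 72.4 and 77.9 CPM in liver, 54.8 and 51.8 CPM in spleen and 4.65 to 17.9 CPM in kidney and lung (log2 2.16 ± 0.12, adjusted p = 9.85e-08). Reln, of stellate cells, had 41.9 and 39.3 CPM in liver and 1.92 to 29.8 CPM elsewhere (log2 2.28 ± 0.19). The 3 Kupffer cell markers summed to 2.18 and 2.11 CPM in liver and to 5.07 and 3.72 CPM in spleen. Their RNA summed to 352 and 206 RPKM in liver against 82.1 and 79.3 RPKM in spleen. The markers differed in direction, at few reads each. Most of the spleen sum was Cd5l, with 4.50 and 3.09 CPM there and 0.493 and 0.689 CPM in liver. Clec4f had 1.18 and 1.16 CPM in liver and at most 0.563 CPM elsewhere (log2 3.32, adjusted p = 0.0474). Vsig4 did not pass (adjusted p = 0.392). The 3 bile duct markers summed to 1.80 and 1.69 CPM in liver and to 14.1 to 103 CPM elsewhere.

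The summed erythroid markers differed between repair and RNA, and their sum in liver came mostly from Klf1 and Alas2. The 4 markers summed to 28.5 and 30.2 CPM in liver and to 1.49 to 9.07 CPM elsewhere. Hbb-bs was at 0 in both liver libraries. Gata1 had 0.436 and 0.950 CPM in liver and 1.78 and 2.45 CPM in spleen and did not pass (adjusted p = 0.385). The 15 tested genes of the erythroid list summed to 121 and 121 CPM in liver and to 104 to 215 CPM elsewhere. The RNA of the 4 markers was lowest in liver replicate 1, at 215 RPKM. It was 782 RPKM in liver replicate 2, against 720 to 17581 RPKM elsewhere. Klf1, an erythroid factor, accounted for most of the TS signal with 21.5 and 20.3 CPM in liver and 0.652 to 7.23 CPM elsewhere (log2 3.13 ± 0.30, adjusted p = 5.44e-06), and its RNA passed as higher against the mean of log levels (log2 2.79, adjusted p = 0.00553), although its 2.03 and 3.48 RPKM in liver lay below the 6.07 RPKM of spleen replicate 1. Alas2, of heme synthesis in red cells, had 6.52 and 9.03 CPM in liver and at most 2.16 CPM elsewhere (log2 3.03, adjusted p = 0.00978), did not pass without liver replicate 2 (adjusted p = 0.12), and had lower RNA (log2 −1.54, adjusted p = 0.0303).

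Set against RNA-seq of the cisplatin-treated organs, in which 3599 of 17896 genes (20.1%) were higher in liver and 4877 (27.3%) lower, genes called in both readouts mostly had the same direction. Of 2716 genes higher in XR-seq and tested in RNA-seq, 1392 (51.3%) had higher RNA, 302 lower RNA, and 1022 passed in neither direction. Of 4776 lower in XR-seq, 1903 (39.8%) had lower RNA, 798 (16.7%) higher RNA, and 2075 passed in neither. The RNA libraries are others than the XR-seq libraries, and RNA values include the TMM factors. With library totals alone the RNA median moved from −0.29 to −1.28, and the same cross-count gave 1058 genes higher in both, 3058 lower in both, 719 higher in repair with lower RNA and 200 lower in repair with higher RNA. With TMM factors for both readouts these were 1601, 1604, 626 and 387, and with TMM factors for XR-seq alone 1143, 2075, 1432 and 96. Genes called in the same direction outnumbered those called in opposite directions under all 4 pairs of scalings, but which of the opposite classes was larger changed.

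**Figure D3:**
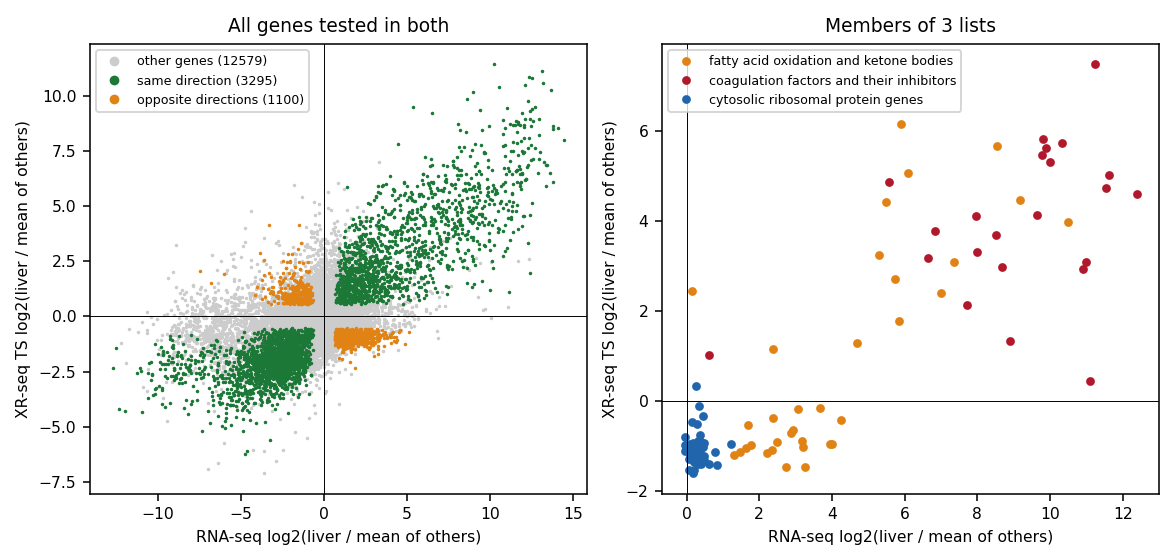
Log2 difference between liver and the mean of the other organs in XR-seq TS (vertical) against RNA-seq (horizontal), 1 point per gene, with genes called in both readouts in the same direction (3295) in green and in opposite directions (1100) in orange. In the right panel coagulation factors lie high in both, ribosomal protein genes lie below 0 in repair at RNA differences close to 0, and fatty acid oxidation genes fall into points above 0 in repair and points below 0 at RNA differences above 0.

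In the saline-injected controls, the RNA difference was of the same call for 558 of the 798 genes with lower repair and higher RNA and for 135 of the 302 genes with higher repair and lower RNA. For the control fit the lung libraries were summed to a single sample, and so were the spleen libraries, so it held fewer samples than the fit after cisplatin. A call kept or lost in controls was not a test of treatment. Of the genes with higher repair and lower RNA, those among the largest by size named here were Corin, Cdcp1, Alas2, Ccdc180 and Ffar4. Corin, a membrane protease that processes natriuretic peptides, had 45.9 and 80.5 CPM in liver and 2.16 to 8.69 CPM elsewhere (log2 4.12). Its RNA difference was −1.53 after cisplatin (adjusted p = 0.0252) and 0.95 in controls (adjusted p = 0.163). Cdcp1, a membrane glycoprotein, had 112 and 124 CPM in liver, 58.1 and 78.2 CPM in kidney and 4.13 to 6.17 CPM in lung and spleen, and its RNA difference was −1.38 after cisplatin and 0.087 in controls (adjusted p = 0.928). Ccdc180 kept its lower RNA in controls (log2 −6.67, adjusted p = 0.000101).

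Among genes with lower repair and higher RNA, the largest by size were Ehd3, Lama1, Sdc3, Wfdc1, Dpysl4 and Tnfrsf11b. Ehd3, a membrane trafficking protein, had 13.3 and 9.55 CPM in liver, 25.8 and 28.0 CPM in kidney and 69.2 to 96.9 CPM in lung and spleen (log2 −2.33 ± 0.18, adjusted p = 8.83e-07). Its RNA difference was 1.88 after cisplatin and 2.68 in controls. Sdc3, a syndecan, had 21.1 and 18.4 CPM in liver and 26.8 to 161 CPM elsewhere, with RNA differences of 1.11 and 1.37. Dpysl4 was called in RNA after cisplatin but not in controls (adjusted p = 0.606), and its repair difference did not pass with TMM factors (adjusted p = 0.075) or without liver replicate 1 (adjusted p = 0.11) or replicate 2 (adjusted p = 0.19). Tnfrsf11b, a decoy receptor of bone, likewise did not pass with TMM factors (adjusted p = 0.061) or without liver replicate 1 (adjusted p = 0.17) or replicate 2 (adjusted p = 0.10).

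The relation of repair to RNA level was not straight. When genes were sorted by liver RNA into 10 equal groups, the median TS level per kb of gene in liver rose from 0.0282 CPM in the lowest to 1.81 CPM in the sixth and then fell to 1.54 CPM in the highest. In the other organs, over the same groups of genes, it rose from 0.0825 CPM to 2.34 CPM in the ninth and was 2.04 CPM in the highest. The median XR-seq TS difference was −0.90 in the lowest group, 0.17 in the fourth and −0.61 in the ninth. The share of genes lower in repair was 44.2% in the ninth group and 38.2% in the highest, and the highest also held the most genes with higher repair (26.8%). Levels are compared per length only, and the groups were formed on liver RNA alone. Genes of the lowest group had at most 0.0117 RPKM in liver and passed the RNA-seq filter mainly through the other organs. Their median RNA difference was −5.05, and their negative repair difference is not read as a result.

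**Figure D4:**
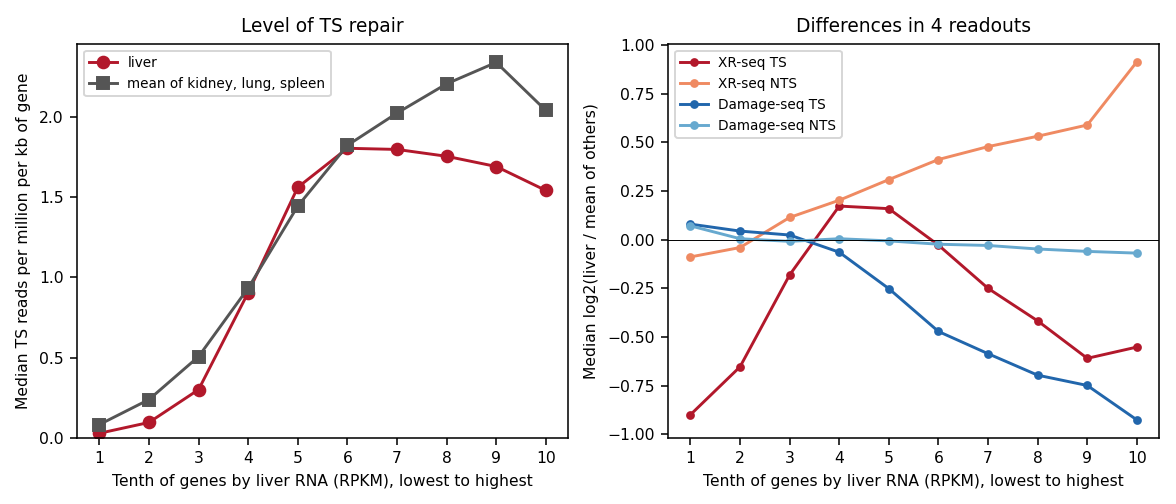
Left, median TS level in CPM per kb of gene in liver and in the mean of the other organs over 10 equal groups of genes by liver RNA. Right, the median log2 difference between liver and the mean of the other organs in 4 readouts over the same groups. The liver curve turns down after the sixth group while the other curve rises to the ninth, Damage-seq TS falls to −0.93, XR-seq NTS rises to 0.91 and Damage-seq NTS stays between −0.07 and 0.07.

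Among genes with higher RNA in liver, the direction of repair went with their RNA level in the other organs. When such genes were sorted by it into 5 equal groups, in the group with the least RNA elsewhere (median 0.184 RPKM), 78.2% were higher in repair and 1.83% lower. In the group with the most (median 46.4 RPKM), 16.8% were higher and 44.9% lower. Sorting in this way also sorted the genes by their RNA difference, whose median was 4.89 in the first group and 1.63 in the last. The median liver TS level in these groups was 0.833 and 1.63 CPM per kb, and in the other organs 0.0928 and 2.43 CPM per kb.

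On the NTS the picture differed. Of 19637 genes tested 2360 (12%) were higher and 602 (3.07%) lower in liver, with a median difference of 0.35, and 1648 and 903 with TMM factors at a median of 0.10. NTS and TS reads come from the same libraries and share their total. Of the genes higher on the TS, 35.2% were higher on the NTS and 1.15% lower. Of those lower on the TS, 7.11% were higher on the NTS and 6.44% lower. F5 had a log2 difference of 3.71 on the NTS (adjusted p = 5.43e-05), C8b of 5.97 and Cyp7a1 of 6.04 (adjusted p = 0.0315), while Cpt1a had 0.10 and Bckdha 0.64, neither of which passed. The TS share of reads was lower in liver than in lung and spleen but not than in kidney. NTS levels are scaled to the TS and NTS total, so a lower TS share raises their sum by construction. The part of the TS share in the differences of single genes was not tested.

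In Damage-seq, 1067 of 19797 genes (5.39%) had a lower TS level in liver than the mean of the other organs and 5 (0.0253%) a higher one. On the NTS of the same libraries 3 of 20220 genes (0.0148%) were lower and 1 (0.00495%) was higher, with 670 at an unadjusted p under 0.05. With TMM factors the TS counts were 362 and 21. The libraries held 1571167 to 6441367 reads on genes, 4037506 and 2440217 of them in liver, so single genes had few reads, and without liver replicate 1 the lower count was 93. Among genes higher in repair and in RNA 22.4% had lower damage on the TS, among those lower in repair and higher in RNA 15.7%, and among those lower in both 0.482%. The medians of the TS damage difference in these classes were −0.67, −0.92 and 0.10.

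In single genes, Masp1 had 14.6 and 17.6 CPM of Damage-seq reads in liver and 30.7 to 46.6 CPM elsewhere on the TS (log2 −1.38 ± 0.18, adjusted p = 2.14e-05). Bckdha had 5.20 and 7.79 in liver and 11.1 to 29.1 elsewhere (log2 −1.53 ± 0.27, adjusted p = 0.000694), and Cpt1a had 9.41 and 13.9 in liver and 16.1 to 33.8 elsewhere (log2 −1.01 ± 0.22, adjusted p = 0.0222). In these 3 genes the liver libraries were below all others in remaining damage, with repair higher in liver for Masp1 and lower for Bckdha and Cpt1a. Over all liver lists together 96 genes had lower TS damage, 228 did not pass and none was higher, with a median of −0.99, where 5.39% of all genes were lower. How many of the 96 pass without liver replicate 1, which took the count over all genes from 1067 to 93, was not computed.

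Some of the called genes were neighbours on a chromosome. Counting runs of at least 6 neighbouring tested genes with the same call, 14 runs were higher in liver and 5 lower. The number of runs that chance gives at 14.9% and 24.4% of genes called was not computed. The longest higher run held the Cyp2c family, 13 genes on chr19:38976647-40187333 with log2 differences from 2.26 to 9.75, all with higher RNA. Runs of 9 held the Sult2a genes with 6 genes that are not protein-coding, the Ces1 genes and the neighbourhood of the coagulation genes F11 and Klkb1, and others held the Cyp3a, Cyp2b and Ugt2b families. Members of these families are close in sequence, and the authors removed reads of low mapping quality. Reads that fit several copies may therefore be missing or misplaced, and pseudogenes among the members are uncertain for the same reason. The longest lower runs were 10 genes of the Hoxb cluster on chr11:96271457-96354691, with differences from −3.89 to −1.98, and 9 of the Hoxa cluster on chr6:52155590-52240854.

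**Figure D5:**
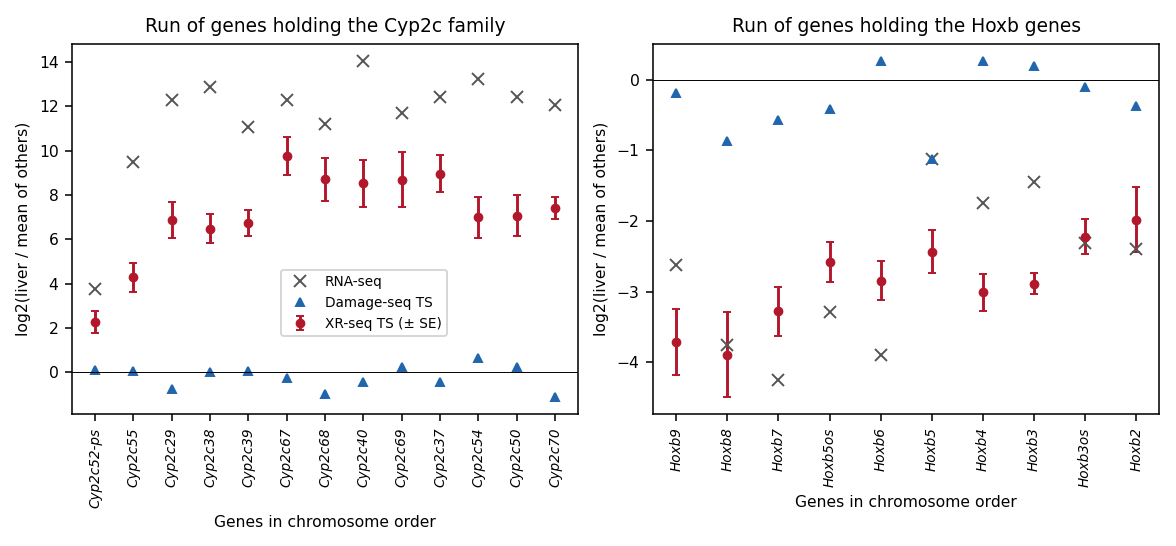
Log2 difference between liver and the mean of the other organs in XR-seq TS (circles with SE), RNA-seq (crosses) and Damage-seq TS (triangles) for the 13 genes of the Cyp2c run (left) and the 10 genes of the Hoxb run (right), in chromosome order. All 13 circles lie above 2 and all 10 lie below −1.9, while the triangles lie closer to 0.

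Gene length went with the calls to some degree. The share of higher genes was 10.4% under 5 kb and 24.8% above 500 kb, and that of lower genes 10.5% and 28.8%, and longer genes hold more reads. Higher genes had a median length of 27479 bp and lower genes of 27054 bp. Of the higher genes 84.0% were protein-coding and of the lower 96.7%, against 85.1% of all tested. A gene on the opposite strand overlapped 30.1% of the higher and 26.7% of the lower genes.

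For genes of the repair machinery and of the response to cisplatin the balance rests on the scaling, and the counts stand against 14.9% higher and 24.4% lower of all genes. Of 32 nucleotide excision repair genes 2 were higher (Rpa1 and Ddb2) and 6 lower, both below those shares, but 6 and 2 with TMM factors. Rpa1, of the single-strand binding complex, had 216 and 197 CPM in liver and 93.3 to 143 CPM elsewhere (log2 0.71 ± 0.10, adjusted p = 0.00404), and was 1.02 with TMM factors. The lower ones were Rad23b, Ddb1, Elof1, Cdk7, Xab2 and Ercc2, picked with Ddb2 after their values had been seen, at −1.31 to −0.72. Of 24 p53 targets 3 were higher and 10 lower (5 and 2 with TMM factors), and of 21 clock genes 5 and 5 (8 and 2).

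Of 23 metallothionein, NRF2 and copper or platinum transport genes 6 were higher and 10 lower (7 and 6 with TMM factors). Abcc1, an exporter of glutathione conjugates, had 29.9 and 26.4 CPM in liver, 127 and 151 CPM in kidney, 149 and 164 CPM in lung and 265 and 262 CPM in spleen (log2 −2.67 ± 0.11, adjusted p = 6.71e-09), with lower RNA (log2 −3.16, adjusted p = 0.000138). Gclc, of glutathione synthesis, had 59.3 and 49.6 CPM in liver and 97.0 to 118 CPM elsewhere (log2 −0.97 ± 0.12), with higher RNA (log2 1.88, adjusted p = 0.00205). Atp7b, the copper exporter of hepatocytes, was higher by 4.29, with RNA higher by 2.20, and was picked after its values had been seen. Of 30 mitosis and DNA replication genes 7 were higher and 2 lower, with a median of 0.13 (11 and 0 with TMM factors), where 14.9% and 24.4% of all genes were, while the RNA of 22 was lower in liver.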

How the data were processed

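XR-seq, Damage-seq and RNA-seq libraries of liver, kidney, lung and spleen were grouped by the organ, assay and treatment in the sample labels; per the submitters' notes, treatment labels of some lung and spleen RNA-seq samples had been corrected, and the current labels were used. The deposited values are raw read counts per gene, on the TS and NTS for XR-seq and Damage-seq. To make them the authors used cutadapt, BWA and Picard for XR-seq and Damage-seq and STAR and featureCounts for RNA-seq, with mm10. Versions are not given in the sources used here. Duplicate reads and reads of low mapping quality were removed from the XR-seq and Damage-seq files by the authors. XR-seq oligomers were selected by length and by guanines near the 3′ end.

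Counts were taken for 25058 genes present in all assays, with 1 row without a gene name dropped per XR-seq or Damage-seq file. Only genes that passed the filter of an assay were tested in it. Models were fitted over all 8 libraries of an assay with edgeR 4.0.16 (R 4.3.3, limma 3.58.1), with filterByExpr, organ as the only term, TS+NTS totals as library sizes for XR-seq and Damage-seq and TMM factors for RNA-seq. glmTreat tested log2 differences beyond 0.4, and Benjamini-Hochberg adjustment covered all genes tested, with calls at 0.05. For the control RNA the 2 lung libraries were summed to 1 sample and the 2 spleen libraries likewise, as each pair differed little beyond sampling noise. RPKM values were computed here from the counts. The study calls its replicates biological, and the labels do not name the animals. On simulated counts with 200 changed genes, 48.9% of genes changed by log2 1 and 81.5% of those changed by log2 2 were called, with 1 false call (19394 genes tested). The simulated counts held no other differences between organs and no library with sparse low counts. They therefore do not give the rate of false calls in these data. Named genes were first the 10 largest differences in each direction at 10 CPM or more in the higher group. These had to pass against each organ, with liver libraries that did not overlap the others. Added were up to 4 per list plus up to 2 against the list's direction, and 6 opposite to RNA in each direction. Some genes that these rules chose are not reported here. The members, the 29 lists and the rules were chosen with earlier results of these data known. Alternatives were other scalings, filters, thresholds and designs, DESeq2 1.42.0, each library left out and, chosen after the counts were seen, the handling of 3 libraries with sparse low counts.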

Additional observations from a re-analysis of the deposited data

How the results depend on the processing

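The number of genes higher on the TS in liver than the mean of the other organs (2935) stayed within 1.5 times under every alternative run except the 2-group design, in which the other 6 libraries share 1 mean and 800 were higher and 2135 lower. The number of lower genes (4823) fell to 2901 with TMM factors and 2800 with DESeq2 size factors. Against each organ (1010 and 2448), TMM factors gave 1608 and 1086, a test against 0 gave 3813 lower, and dividing the counts of the 3 sparse libraries gave 1603 higher. Leaving out 1 library gave 638 to 1232 higher and 1620 to 3031 lower, with 638 and 1620 without liver replicate 2, and, against the mean of the organs, 2178 to 3527 and 3514 to 5678. On the NTS (2360 and 602), TMM factors gave 1648 and 903 and leaving out 1 library 1006 to 4342 and 248 to 956, with 4342 and 956 without kidney replicate 2, 1331 and 248 without liver replicate 1 and 1006 and 328 without liver replicate 2, and without the 3 sparse libraries the counts were 4464 and 1589. For Damage-seq TS (5 and 1067) they were 21 and 362 with TMM factors, 405 and 2839 against 0, 1 and 3 with NTS counts, and 0 to 11 and 93 to 1238 with 1 library left out, with 0 and 93 without liver replicate 1 and 2 and 627 without liver replicate 2. For RNA (3599 and 4877) they were 1755 and 9350 without TMM factors, 3162 and 4341 in control libraries, and 3230 to 4114 and 4247 to 5317 with 1 library left out. The TS share difference ran from −4.00 to −2.50 points. The labels do not tie same-numbered libraries of different organs and name no batch, although the study adjusted for one. Their deviations correlated at 0.0211 to 0.1 in XR-seq TS and at −0.217 to 0.379 in RNA-seq, and replicate 1 of kidney, lung and spleen share the sparse low counts. With the replicate number as a block the counts were 2951 and 4713 on the TS, 1013 and 2330 against each organ, 2358 and 569 on the NTS, 4 and 1048 for Damage-seq and 3369 and 4553 for RNA. The sign of Umod turned to −0.70 on the TS in the 2-group design. In RNA it turned in controls for Foxo1 (−0.28), Pax2 (−4.16), Cela2a (3.32), Corin (0.95) and Cdcp1 (0.087), without TMM factors for Foxo1 (−0.24), Zbtb20 (−1.01), Hopx (−0.25), Sesn2 (−0.83), Rps19 (−1.04), Rpl22 (−0.94), Rpl3 (−1.02) and Wfdc1 (−0.084), and for Zbtb20 without liver replicate 2 (−0.83, against 0.67 without replicate 1). The cause of these changes was not tested. Of 117 named genes that passed on the TS, 57 no longer passed in the 2-group design and 1 more, Umod, reversed, 12 with TMM factors and 7 with DESeq2. Low read numbers limit Damage-seq.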
